A study of Homo sapiens with 6 samples.

Results

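Mitochondria carry ribosomes of their own, which make the few respiratory chain and ATP synthase proteins encoded in the mitochondrial genome. The RNA of these ribosomes comes from the mitochondrial genome, whereas all of their proteins are encoded in the nucleus, made in the cytosol and imported. Large subunit proteins, named MRPL, surround the site where amino acids are joined and the tunnel through which the new chain leaves, and small subunit proteins, named MRPS, hold the messenger RNA at the decoding site. Part of the proteins have a counterpart in bacterial ribosomes, and the rest were added during the evolution of mitochondria. Liver cells are rich in mitochondria and depend on this translation for oxidative phosphorylation.

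The genes described here are those whose symbol is MRPL or MRPS followed by a number and at most 1 letter. The array held 76 of them, 49 MRPL and 27 MRPS, among 24241 genes with a symbol. They were measured in HepG2, an established line from a human liver cancer that keeps many hepatocyte traits, cultured in RPMI. The cells received 0.75 µM verteporfin (3 arrays) or the solvent DMSO alone (3 arrays) for 24 hours before total RNA was taken. Verteporfin, a porphyrin drug given in photodynamic therapy, is also known to hinder the binding of YAP to TEAD transcription factors. The labels state neither light exposure nor whether the samples of a group were separate cultures, so the p-values rest on the spread among these 6 samples alone, and that spread may be technical.

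Signals are RMA log2 values, on which 1 unit is a doubling, and each difference is verteporfin minus DMSO, given with its standard error (SE, n = 3 arrays per group throughout). A gene passed when its adjusted p from limma, fitted on all 24241 genes, was below 0.05. The arrays had been made identical in their distribution, so that a shift shared by all transcripts would not show. Arrays of 1 group correlated at 0.995 to 0.997 and arrays of different groups at 0.969 to 0.977. All 9 hepatocyte markers measured lay above the array median of 4.83, with 7 lower and 1 higher in verteporfin (median -1.65). The higher one was FOXA2 (0.39), and SERPINA1 did not pass (adjusted p = 0.0741, limma). Among genes above the median signal, 25.8% were lower and 26.5% higher. Of 9 markers of fibroblasts, endothelium and leukocytes, 7 lay below the array median. COL1A1 (6.45 in verteporfin, 6.58 in DMSO) and LYZ (11.9 in verteporfin, 13.2 in DMSO) lay above it. LYZ was the 1 marker of other cell types that passed (lower), and COL1A1 did not pass (adjusted p = 0.301, limma). The part of the hepatocyte markers and of LYZ in the results was not tested. In a bulk sample, a change in the RNA per cell and a change in the make-up of the culture cannot be told apart.

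Verteporfin shifted transcripts of the mitochondrial ribosome in both directions, more often downward. Of the 76 members, 31 (40.8%) were lower, 8 (10.5%) were higher and 37 did not pass. Over all genes, 14.3% were lower and 14.3% higher. Since 75 of the 76 members had a mean over the 6 arrays above the array median, the nearer comparison is with genes above the median signal, of which 25.8% were lower and 26.5% higher. The member median was -0.15, against 0.02 for genes above the median signal. The 3 verteporfin arrays lay wholly on one side of the 3 DMSO arrays for 56 members (73.7%), against 39.1% of all genes and 63.1% of genes above the median signal. The changes were modest. None of the 76 reached a 2-fold difference, whereas 5.73% of all genes both passed and reached it. The widest falls and rises were 1.79-fold (MRPL42) and 1.66-fold (MRPS10). Of the 39 calls, 24 held when any single array was left out. The groups overlapped for none of the 39, so lack of overlap is no further support for a called gene.

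**Figure D1:**
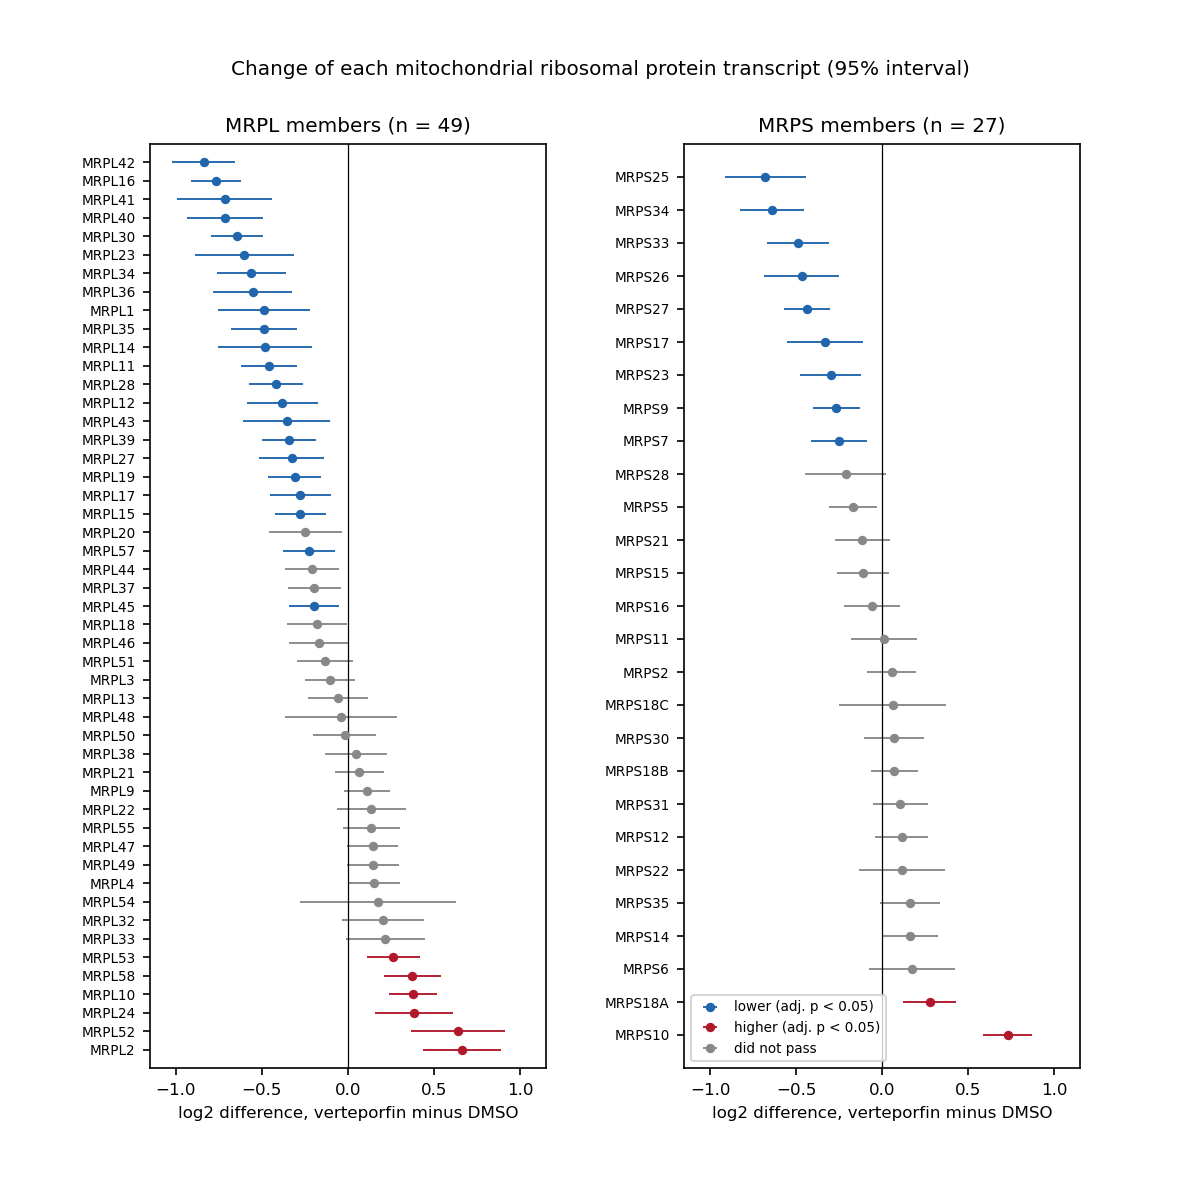
Log2 difference (x axis, verteporfin minus DMSO) of every member, sorted, with MRPL on the left and MRPS on the right. Points are estimates, bars are 95% intervals from limma and colours give the call. The range runs from -0.84 (MRPL42) to 0.73 (MRPS10), with 31 members lower and 8 higher.

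By name, 22 of 49 MRPL members were lower (44.9%) and 6 higher (12.2%), and 9 of 27 MRPS members were lower (33.3%) and 2 higher (7.41%). Among genes above the median signal 25.8% were lower and 26.5% higher, and over all genes 14.3% and 14.3%. The lower share of MRPS was thus near the former background, and both higher shares were below it. The median difference was -0.20 for MRPL and -0.06 for MRPS. Averaged over the MRPL members, the signal was 8.56, 8.55 and 8.52 on the verteporfin arrays and 8.74, 8.69 and 8.67 on the DMSO arrays. Averaged over the MRPS members, it was 8.87, 8.90 and 8.87 on the verteporfin arrays and 9.02, 8.95 and 8.94 on the DMSO arrays. Neither average overlapped between the groups, and DMSO replicate 1 was the highest array in both. The MRPL average lay below the MRPS average by 0.31, 0.34 and 0.34 on the verteporfin arrays and by 0.28, 0.26 and 0.26 on the DMSO arrays, a slightly wider gap on every verteporfin array. No test of the difference between the subunits was made.

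These counts depended on single arrays. Without DMSO replicate 1 the lower calls were 14 MRPL and 6 MRPS and the higher calls 8 and 3. Without verteporfin replicate 1 or verteporfin replicate 3, 6 MRPS members were lower. The higher calls were 4 MRPL and 1 MRPS without DMSO replicate 3. MRPS had 1 higher member without DMSO replicate 2 or verteporfin replicate 1. The MRPS median lay between -0.10 (without verteporfin replicate 3) and -0.04 (without verteporfin replicate 1). All 39 called members kept their direction in every alternative run. The groups overlapped for none of them, so leaving out arrays could not have reversed a difference.

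**Figure D2:**
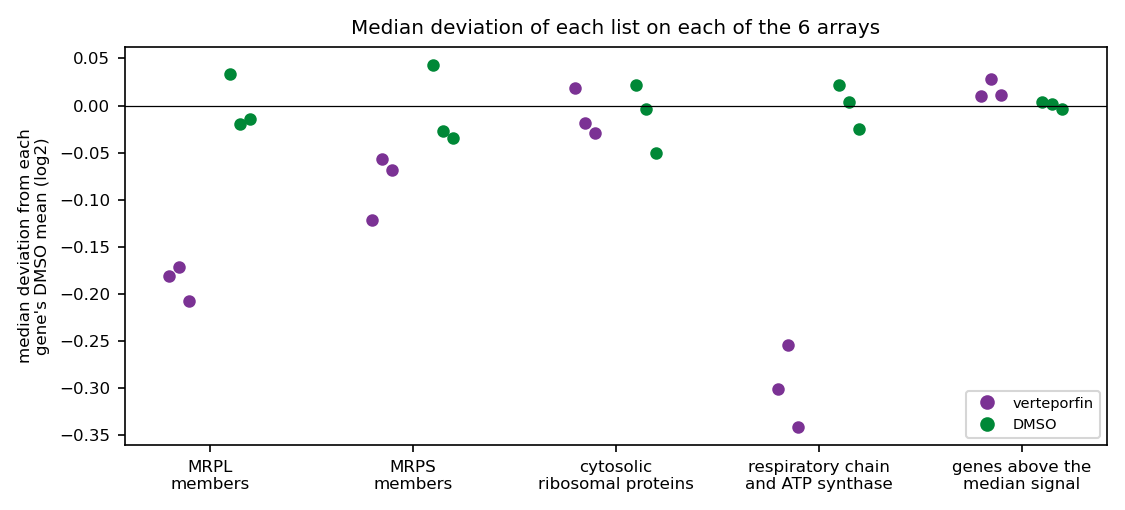
For each array (dots; verteporfin purple, DMSO green) the y axis gives the median, over the genes of a list, of the deviation from each gene's DMSO mean in log2 units. The MRPL medians were -0.18, -0.17 and -0.21 on verteporfin arrays, and the MRPS medians -0.12, -0.06 and -0.07, while those of genes above the median signal stayed between 0.01 and 0.03.

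The names do not follow the structure of the ribosome in every case, and ribosomal proteins with other symbols, given below, are not counted here. MRPS30 and MRPS18A are known to sit in the large subunit despite their names. With both counted there, 22 of 51 large subunit genes were lower and 7 higher (median -0.18), and 9 of 25 small subunit genes were lower and 1 higher (median -0.11). The medians of the subunits thus lay closer together than by name. Counted this way, the large and small subunit averages were 8.597 and 8.809 on verteporfin replicate 1. They were 8.766 and 8.976 on DMSO replicate 1, nearly the same gap, while verteporfin replicates 2 and 3 kept a slightly wider one. Within the large subunit, genes with a bacterial counterpart were lower in 15 of 29 and higher in 3 (median -0.28), and genes without one were lower in 7 of 22 and higher in 4 (median -0.09). Within the small subunit the order was the other way round. Genes without a bacterial counterpart were lower in 6 of 10 and higher in 0 (median -0.37; the other 4 also missed an unadjusted p of 0.05 in limma), and genes with one were lower in 3 of 15 and higher in 1 (median -0.06). With and without a counterpart, the lower shares were 51.7% and 31.8% in the large subunit and 20% and 60% in the small subunit. Over all genes 14.3% were lower and 14.3% higher, and among genes above the median signal 25.8% and 26.5%. The lower shares of 31.8% and 20% were thus near the latter background, and every higher share, at most 18.2%, was below it. No test of the difference was made, and single arrays moved these counts. The 3 lower small subunit genes with a counterpart became 1 without DMSO replicate 1, verteporfin replicate 1 or verteporfin replicate 3, and 2 without DMSO replicate 2 or verteporfin replicate 2. The 1 higher gene of that group became 2 without DMSO replicate 1. For large subunit genes without a counterpart, 4 were lower without DMSO replicate 1, DMSO replicate 2 or verteporfin replicate 3, and 2 were higher without DMSO replicate 3. For large subunit genes with a counterpart, 10 were lower and 5 higher without DMSO replicate 1, and 2 were higher without DMSO replicate 2 or 3.

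Among the large subunit genes that fell, MRPL42, which has no bacterial counterpart, had the lowest difference. Its signal was 8.36, 8.38 and 8.18 on the verteporfin arrays and 9.07, 9.22 and 9.15 on the DMSO arrays. The groups did not overlap, and the difference was -0.84 ± 0.08 (adjusted p = 0.000125, limma). A pseudogene copy, MRPL42P5, had its own probe set, at 3.58 in verteporfin and 3.48 in DMSO, below the array median. Probe signal shared between a gene and its copies cannot be separated here.

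MRPL16 is the counterpart of a bacterial protein that helps to seat transfer RNA on the large subunit. Its signal was 8.72, 8.82 and 8.70 on the verteporfin arrays and 9.51, 9.49 and 9.55 on the DMSO arrays. It fell by 0.77 on the log2 scale (-0.77 ± 0.06, adjusted p = 6.19e-05, limma), with little spread in either group. MRPL30, another protein with a bacterial counterpart, was at 9.54, 9.66 and 9.68 in verteporfin and at 10.28, 10.29 and 10.24 in DMSO. The DMSO arrays were nearly equal and all above the verteporfin arrays (-0.64 ± 0.06, adjusted p = 0.000173, limma).

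MRPL40 and MRPL41 have no bacterial counterpart. MRPL40 was at 7.60, 7.87 and 7.68 on the verteporfin arrays and at 8.41, 8.32 and 8.56 on the DMSO arrays (-0.71 ± 0.09, adjusted p = 0.00078, limma). MRPL41 was at 6.52, 6.21 and 6.44 in verteporfin and at 7.17, 7.26 and 6.89 in DMSO (-0.72 ± 0.12, adjusted p = 0.00254, limma). Neither gene overlapped between groups, and the replicates of MRPL41 spread wider. MRPL23, whose bacterial counterpart lines the exit of the peptide tunnel, was at 6.61, 6.67 and 6.78 in verteporfin and at 7.47, 7.40 and 7.0 in DMSO. DMSO replicate 3 was low for this gene (-0.60 ± 0.12, adjusted p = 0.00748, limma), and its call ended when replicate 1 or replicate 2 was removed from each group (adjusted p = 0.0796 and 0.0652, limma).

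The other 16 MRPL members that were lower ranged from -0.56 (MRPL34) to -0.20 (MRPL45). In order they were MRPL34, MRPL36, MRPL1, MRPL35, MRPL14, MRPL11, MRPL28, MRPL12, MRPL43, MRPL39, MRPL27, MRPL19, MRPL17, MRPL15, MRPL57 and MRPL45. Of these, MRPL43 and MRPL45 are described after their values were seen. MRPL43 was the only member whose mean over the 6 arrays lay below the array median, with 4.58 in verteporfin, below it, and 4.94 in DMSO, just above it. Leaving out some single arrays ended the calls of 9 of the 16: MRPL1, MRPL14, MRPL12, MRPL43, MRPL27, MRPL17, MRPL15, MRPL57 and MRPL45. MRPL45, which ties the exit of the tunnel to the inner membrane, lost its call (-0.20 ± 0.06, adjusted p = 0.0489, limma) without any 1 of the 6 arrays, and its copy MRPL45P2 was at 6.99 in verteporfin and 6.92 in DMSO.

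MRPL2 had the largest rise of the large subunit. It is the counterpart of a bacterial protein that binds ribosomal RNA near the peptidyl transferase site. Its signal was 10.57, 10.30 and 10.39 on the verteporfin arrays and 9.79, 9.61 and 9.87 on the DMSO arrays. All verteporfin arrays lay above all DMSO arrays (0.66 ± 0.10, adjusted p = 0.00124, limma). MRPL52, without a bacterial counterpart, was at 7.10, 6.71 and 7.06 in verteporfin and at 6.38, 6.17 and 6.41 in DMSO. It rose by 0.64 ± 0.12 (adjusted p = 0.00421, limma), with verteporfin replicate 2 nearest to the DMSO arrays.

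The remaining 4 MRPL members that rose lay between 0.26 and 0.38. MRPL58, formerly ICT1, is an enzyme that releases peptides from stalled ribosomes and is also built into the large subunit. It was at 9.96, 9.98 and 9.83 in verteporfin and at 9.62, 9.48 and 9.54 in DMSO (0.37 ± 0.07, adjusted p = 0.00518, limma), a call that ended when replicate 2 was removed from each group (0.0518). MRPL24 (0.38 ± 0.10, adjusted p = 0.0203, limma) lost its call without DMSO replicate 2 or 3 (adjusted p up to 0.0742), as did MRPL53 (0.26 ± 0.07, adjusted p = 0.0176) without verteporfin replicate 3 or DMSO replicate 3 (adjusted p up to 0.0669) and with the replicate block (0.0568). The call of MRPL24 also ended when replicate 2 or 3 was removed from each group (adjusted p up to 0.1075, limma). That of MRPL53 ended whichever replicate number was removed from each group (adjusted p up to 0.173, limma). For the enzyme and both of these genes, the groups did not overlap.

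**Figure D3:**
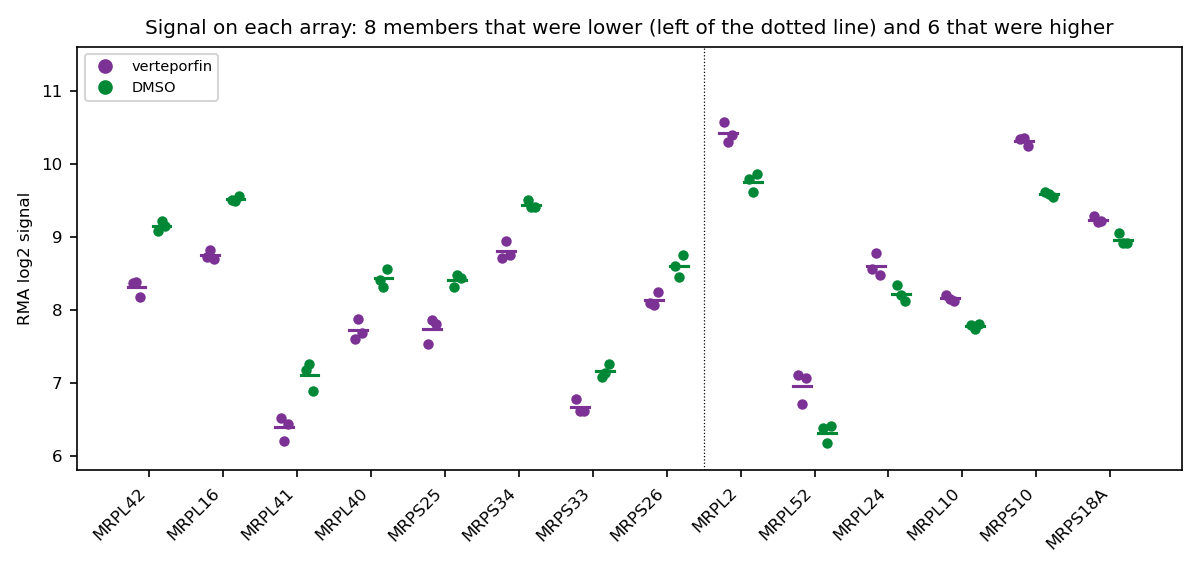
RMA log2 signal (y axis) on each array for the 4 lowest members of each subunit that fell, left of the dotted line, and for the 4 highest MRPL and both MRPS members that rose, right of it. Verteporfin arrays are purple and DMSO arrays green, and bars are group means. The groups overlap in none of these 14 genes. This was a condition for showing the lower ones, and it held for every called member.

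The stalk of the large subunit, which calls translation factors to the ribosome, was split between directions. MRPL10 forms its base and holds copies of MRPL12, and MRPL11 lies beside them. MRPL10 was at 8.20, 8.15 and 8.12 on the verteporfin arrays and at 7.79, 7.73 and 7.81 on the DMSO arrays, a rise of 0.38 ± 0.06 (adjusted p = 0.00197, limma). MRPL12 was at 8.85, 8.99 and 8.74 in verteporfin and at 9.28, 9.12 and 9.32 in DMSO. The 2 binding partners moved apart, since MRPL12 fell (-0.38 ± 0.09, adjusted p = 0.013, limma). The call of MRPL12 was lost without DMSO replicate 1 or 3 (adjusted p up to 0.0516). It was also lost when replicate 1 or 3 was removed from each group (adjusted p up to 0.1335, limma). MRPL11 fell too, at 8.24, 8.24 and 8.20 in verteporfin and 8.75, 8.57 and 8.73 in DMSO (-0.46 ± 0.07, adjusted p = 0.00156, limma). MRPL11 is named here after its value was seen.

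In the small subunit, MRPS25 and MRPS34 were lowest. Neither has a bacterial counterpart, and inherited variants of both genes cause mitochondrial disease. MRPS25 was at 7.53, 7.86 and 7.81 on the verteporfin arrays and at 8.32, 8.48 and 8.43 on the DMSO arrays (-0.68 ± 0.10, adjusted p = 0.00137, limma). MRPS34 was at 8.71, 8.94 and 8.75 in verteporfin and at 9.50, 9.41 and 9.40 in DMSO (-0.64 ± 0.08, adjusted p = 0.000525, limma). Verteporfin arrays were the lower ones throughout for both, each about 1.6-fold (1.60 and 1.56).

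MRPS27, a protein with pentatricopeptide repeats, a motif that binds RNA in related proteins, was at 9.69, 9.73 and 9.65 in verteporfin. On the DMSO arrays it was at 10.12, 10.13 and 10.13, and all of them lay above the verteporfin arrays (-0.43 ± 0.06, adjusted p = 0.000769, limma). MRPS33 (-0.49 ± 0.08) and MRPS26 (-0.47 ± 0.09) also fell (adjusted p = 0.00191 and 0.00628, limma), the second losing its call when replicate 1 was removed from each group (adjusted p = 0.0683). MRPS17, whose bacterial counterpart binds the small ribosomal RNA directly, was at 8.20, 8.42 and 8.31 in verteporfin and 8.81, 8.59 and 8.53 in DMSO (-0.33 ± 0.09, adjusted p = 0.0324, limma). Its groups came close, and the call was lost without verteporfin replicate 1 or 3 or DMSO replicate 1 or 2 (adjusted p up to 0.099) and with the replicate block (0.0792). The call was also lost when replicate 1 or 3 was removed from each group (adjusted p up to 0.204, limma). MRPS23, MRPS9 and MRPS7 were lower by smaller steps, from -0.30 (MRPS23) to -0.25 (MRPS7), and the calls of MRPS23 and MRPS7 each ended without 4 of the 6 arrays in turn.

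MRPS10 stood out in the other direction. It is the counterpart of a bacterial protein of the head of the small subunit. Its signal was 10.34, 10.35 and 10.25 on the verteporfin arrays and 9.61, 9.59 and 9.54 on the DMSO arrays. Both groups were tight, and the gene was 1.66-fold higher (0.73 ± 0.06, adjusted p = 7.22e-05, limma). With MRPS18A set aside as a large subunit protein, MRPS10 was the 1 small subunit gene with an MRPS symbol that rose. DAP3, a small subunit protein with another symbol, also rose, as given below.

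Human mitochondria have 3 proteins related to a single bacterial protein of the small subunit, MRPS18A, MRPS18B and MRPS18C, of which the first sits in the large subunit and the other two in the small. Only MRPS18C was counted above among genes with a bacterial counterpart. MRPS18A was at 9.29, 9.21 and 9.21 in verteporfin and at 9.05, 8.92 and 8.91 in DMSO. It rose by 0.28 ± 0.07 (adjusted p = 0.0165, limma), a call lost without verteporfin replicate 1 or DMSO replicate 2 or 3 (adjusted p up to 0.0635). The call also ended whichever replicate number was removed from each group (adjusted p up to 0.124, limma). MRPS18B did not pass (0.07 ± 0.06, 95% interval -0.07 to 0.21), nor did MRPS18C (0.06 ± 0.13, interval -0.25 to 0.37). The interval of MRPS18C contains the estimate for MRPS18A, so a change of that size is not excluded for it. MRPS30, the other large subunit protein with an MRPS name, was at 0.07 ± 0.07 (interval -0.10 to 0.24), and MRPS12, of the decoding site, at 0.11 ± 0.07 (interval -0.04 to 0.27).

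The 21 MRPL members that did not pass were MRPL20, MRPL44, MRPL37, MRPL18, MRPL46, MRPL51, MRPL3, MRPL13, MRPL48, MRPL50, MRPL38, MRPL21, MRPL9, MRPL22, MRPL55, MRPL47, MRPL49, MRPL4, MRPL54, MRPL32 and MRPL33. Their differences ran from -0.25 to 0.22, and for 11 of them the groups did not overlap. The 16 MRPS members that did not pass were MRPS28, MRPS5, MRPS21, MRPS15, MRPS16, MRPS11, MRPS2, MRPS18C, MRPS30, MRPS18B, MRPS31, MRPS12, MRPS22, MRPS35, MRPS14 and MRPS6. Theirs ran from -0.21 to 0.17, with no overlap for 6. The groups did not overlap for 39.1% of all genes and 63.1% of genes above the median signal. These shares include genes that passed, so they are not a like background for members that did not pass. The 95% intervals of these genes stayed within -0.46 and 0.63, and the widest upper bound was that of MRPL54. MRPS31 has a copy, MRPS31P5, at 5.62 in verteporfin and 5.49 in DMSO.

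Proteins of the same ribosome that carry other symbols included a larger change than any member's. PTCD3, a pentatricopeptide repeat protein of the small subunit, was at 9.79, 10 and 9.89 on the verteporfin arrays and at 10.90, 10.91 and 10.91 on the DMSO arrays. The fall of -1.01 ± 0.07 (adjusted p = 3.17e-05, limma) was beyond that of any MRPL or MRPS gene. CHCHD1, also of the small subunit, fell by 0.66 (-0.66 ± 0.07, adjusted p = 0.000208, limma). DAP3, the GTP-binding protein of the small subunit, rose by 0.29 ± 0.06 (adjusted p = 0.00882, limma), a call that ended when replicate 1 or 3 was removed from each group (0.0849 and 0.0634), and GADD45GIP1 of the large subunit was at -0.05 ± 0.08 (adjusted p = 0.708). KGD4, once called MRPS36 and since placed in the 2-oxoglutarate dehydrogenase complex, was at -0.10 ± 0.14 (adjusted p = 0.713, limma). AURKAIP1 and MRPS24 were not analysed here.

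The promoters of 68 members were found in a RefSeq table (GRCh38.p14) that gives, for each gene, 250 bases before and 50 after the transcript start. They are shown for the lowest and the highest called member of each subunit with an entry. These were MRPL42 and MRPL52 for MRPL and MRPS25 and MRPS10 for MRPS, the ends of the range among members with an entry. MRPL2, which rose slightly more than MRPL52, had no entry. Each run of 270 bases goes from 250 before to 20 after the start, 5′ to 3′ on the gene's strand. Capitals mark the letters of the ETS motif CCGGAAG, bound by GABP among others, the YY1 motif AAGATGGC, the NRF1 motif GCGCANGCG or the E-box CACGTG, on either strand. MRPL42 lies at chr12:93467264-93467533 (plus strand), MRPL52 at chr14:22829637-22829906 (plus), MRPS25 at chr3:15065296-15065565 (minus) and MRPS10 at chr6:42217842-42218111 (minus).
MRPL42: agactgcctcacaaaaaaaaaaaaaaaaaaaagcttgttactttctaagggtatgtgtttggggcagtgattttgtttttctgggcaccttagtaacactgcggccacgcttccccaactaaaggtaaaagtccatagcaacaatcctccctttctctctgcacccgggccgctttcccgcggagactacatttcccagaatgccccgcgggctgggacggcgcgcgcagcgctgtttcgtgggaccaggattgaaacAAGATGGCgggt
MRPL52: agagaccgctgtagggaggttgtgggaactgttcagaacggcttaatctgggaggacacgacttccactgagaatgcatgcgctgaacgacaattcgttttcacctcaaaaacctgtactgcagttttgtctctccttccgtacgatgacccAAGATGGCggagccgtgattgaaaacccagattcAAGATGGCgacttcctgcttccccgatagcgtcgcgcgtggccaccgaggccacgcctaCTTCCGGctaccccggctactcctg
MRPS25: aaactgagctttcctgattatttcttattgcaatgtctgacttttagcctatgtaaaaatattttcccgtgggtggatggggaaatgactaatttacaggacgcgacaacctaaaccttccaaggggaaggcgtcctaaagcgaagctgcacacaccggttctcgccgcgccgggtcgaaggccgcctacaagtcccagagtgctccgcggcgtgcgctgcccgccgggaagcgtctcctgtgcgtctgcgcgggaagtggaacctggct
MRPS10: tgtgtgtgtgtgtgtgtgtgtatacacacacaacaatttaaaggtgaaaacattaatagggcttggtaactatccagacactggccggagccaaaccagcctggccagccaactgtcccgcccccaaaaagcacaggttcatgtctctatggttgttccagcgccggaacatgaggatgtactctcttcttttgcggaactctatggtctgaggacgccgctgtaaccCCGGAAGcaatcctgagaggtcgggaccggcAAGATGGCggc

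MRPL42 held 1 YY1 motif just after its start, and MRPS10 held 1 there together with 1 ETS motif before the start. MRPL52 held 2 YY1 motifs and 1 ETS motif across the start, and MRPS25 held none of the 4. YY1 letters were thus in MRPL42, which fell, and in MRPL52 and MRPS10, which rose, but not in MRPS25, which fell. Over the full window of 300 bases, YY1 letters were in 19 of 68 member promoters (27.9%), against 3.03% of 27305 promoters with 1 window per gene and 5.63% of those of genes above the median signal. ETS letters were in 29 members (42.6%), against 10.7% and 19.8%. NRF1 letters were in 13 (19.1%), against 8.05% and 15.0%, and the E-box in 6 (8.82%), against 7.43% and 10.5%. The ETS and YY1 motifs can share the letters AAG, but in none of the 8 promoters with both did they overlap.

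Set beside the calls, NRF1 letters were in 8 of 28 promoters of members that were lower, 0 of 6 of those higher and 5 of 34 of those that did not pass. ETS letters were in 10 of 28, 5 of 6 and 14 of 34 of these, and YY1 letters in 5 of 28, 3 of 6 and 11 of 34. With 6 promoters of risen members, the shares are coarse, and no test was made. A match is a string of letters, not a bound site.

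Of 28 genes for the assembly of the mitochondrial ribosome, 9 were lower (32.1%) and 4 higher (14.3%), with a median of -0.12. Among genes above the median signal, 25.8% were lower and 26.5% higher, so the lower share was near the background and the higher share below it. MPV17L2, an inner membrane protein needed for assembly, was at 10.30, 10.05 and 10.09 in verteporfin and at 9.20, 9.05 and 9.14 in DMSO (1.02 ± 0.09, adjusted p = 7.25e-05, limma). NGRN, which supports the large ribosomal RNA, rose by 0.70 ± 0.07, whereas MALSU1, which binds the large subunit late in its assembly, fell by 0.70 (-0.70 ± 0.07; adjusted p = 0.000134 and 0.000195, limma). Thus 2 assembly factors of the same subunit changed by similar amounts in opposite directions.

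Of 16 translation factors and messenger RNA stabilisers of mitochondria, 7 were lower (43.8%) and 3 higher (18.8%), with a median of -0.18. The background among genes above the median signal was 25.8% lower and 26.5% higher. LRPPRC (-0.44 ± 0.06) and its partner SLIRP (-0.57 ± 0.08), which stabilise mitochondrial messenger RNA, both fell, and MTRFR, a rescue factor for stalled ribosomes like MRPL58, rose (0.73 ± 0.10). Of 16 mitochondrial tRNA synthetases, 5 were lower (31.2%) and 1 higher (6.25%), with a median of -0.20. The lower share of this list was near that background and the higher share below it. LARS2 (-0.94 ± 0.07), IARS2 (-0.80 ± 0.07) and NARS2 (-0.46 ± 0.08) fell. Of 16 genes for mitochondrial transcription and RNA processing, 4 were lower (25%) and 2 higher (12.5%), with a median of -0.06, a lower share at the 25.8% background. TFAM, which packs and transcribes the mitochondrial genome, fell (-0.48 ± 0.07), as did the tRNA processing nuclease ELAC2 (-0.38 ± 0.06), and FASTKD5 rose (0.67 ± 0.09). The adjusted p of the genes named here was 0.00297 or below (limma).

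Among 9 regulators of mitochondrial biogenesis, 2 were lower and 2 higher (22.2% each, median 0.02), close to the same background. PPARGC1A, a coactivator of mitochondrial genes, was at 7.17, 7.24 and 7.20 in verteporfin and at 9.27, 9.52 and 9.47 in DMSO (-2.22 ± 0.08, adjusted p = 2.01e-06, limma). MYC rose (0.74 ± 0.07), and so did GABPB1 (0.77 ± 0.09), the partner of the ETS factor GABPA. Of the factors whose motifs were searched, GABPA (-0.27 ± 0.10), NRF1 (-0.17 ± 0.11) and YY1 (0.10 ± 0.07) did not pass (adjusted p = 0.0864, 0.344 and 0.416, limma). These 3 are given because of the motifs, after their values were seen. Transcripts of the mitochondrial genome were not analysed here.

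The member median of -0.15 lay between those of the cytosolic ribosome and of the respiratory chain, which the mitochondrial ribosome serves. Of 52 cytosolic ribosomal proteins, 9 were lower and 5 higher (median 0.01), and RPS26 (-1.24 ± 0.22) and RPS23 (-0.61 ± 0.07) fell while RPL41 rose (0.38 ± 0.07). Cytosolic ribosomal protein genes have many near-identical pseudogene copies, so their signals are uncertain. Of 67 nuclear genes for the respiratory chain and ATP synthase, 39 were lower and 1 higher (median -0.32), with NDUFB1 (-0.94 ± 0.08), NDUFB10 (-0.93 ± 0.09) and UQCR10 (-0.84 ± 0.08) falling. No test of the difference between these lists was made. The share of genes that were higher was 10.5% for the mitochondrial ribosome, 9.62% for the cytosolic ribosome and 1.49% for the respiratory chain. The share that was lower was 40.8%, 17.3% and 58.2%, in the same order. Among genes above the median signal 25.8% were lower and 26.5% higher, and over all genes 14.3% and 14.3%.

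**Figure D4:**
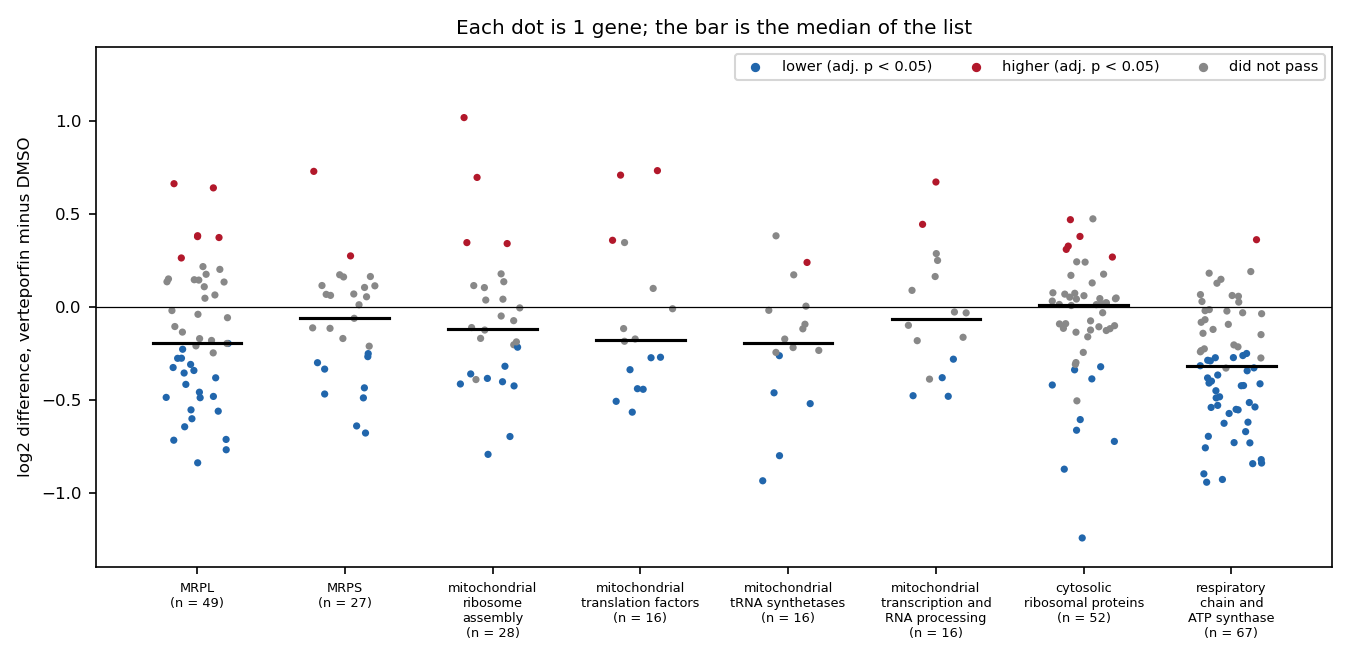
Log2 difference (y axis, verteporfin minus DMSO) of each gene in 8 lists, with dots coloured by call and the black bar at the list median. MRPL and MRPS spread on both sides of 0 (medians -0.20 and -0.06), and the respiratory chain genes lie mostly below it (median -0.32).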

How the data were processed

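Total RNA of 6 HepG2 samples was labelled with biotin and hybridised to Affymetrix arrays, per the labels' protocols. The authors deposited log2 values per probe set; per the submitters' processing notes the tool was RMA, which removes background, gives all arrays 1 distribution by quantile normalisation and combines each set's probes. Its version is not stated in the labels. The number of arrays limits the precision. Of 25582 probe sets, 24244 had 1 gene symbol in the platform annotation, 0 had several and 1338 had none; for 3 symbols with several probe sets the brightest was kept.

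The two-sided test was limma 3.58.1 (lmFit and eBayes, R 4.3.3), adjusted by Benjamini-Hochberg over 24241 genes. A two-sided permutation test of 3 against 3 arrays cannot go below 0.1, so none was used. On simulated data with 24241 genes, 56% of changes of -0.5 and 60% of changes of 0.5 were called (50 genes each), with 5 false calls. Apart from these, only 50 genes each were changed by -1 and by 1, whereas 6916 genes passed in the data. The adjustment depends on the share of changed genes, so these rates do not carry over to the real fit. Named members are the 6 lowest and 4 highest non-overlapping calls of each subunit, each call against its subunit's majority, 7 members chosen for their role, KGD4 and the ribosomal proteins with other symbols; of other lists, up to 3 with the smallest adjusted p. The members, this rule and the 15 gene lists were chosen with earlier results of these data known. Alternatives were another moderation, a signal filter, another centring, averaged probe sets, a replicate block and fits with arrays left out.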

Additional observations from a re-analysis of the deposited data

How the results depend on the processing

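Of the 39 member calls, 17 held in all 14 alternatives. None changed direction, which leaving out arrays could not bring about, as the groups overlapped for no called member. With another moderation, a signal filter, another centring or averaged probe sets, 22 to 25 MRPL and 9 or 10 MRPS members were lower and 6 and 2 higher. With the replicate block, 18 and 7 were lower and 5 and 2 higher. Same-numbered arrays did not deviate together (correlations -0.02, -0.11 and -0.01). These correlations cannot show whether same-numbered samples were handled together. With 1 or 2 arrays left out, the lower MRPL members numbered 11 to 20 and the higher ones 3 to 8, and the lower MRPS members 4 to 9 and the higher ones 1 to 3. The MRPL median ran from -0.23 to -0.17 and the MRPS median from -0.10 to -0.024. Over all genes, 5028 to 6626 passed in those fits, against 6916 with all arrays. These fits hold fewer arrays; why lower calls dropped while higher MRPL and MRPS calls grew to 8 and 3 without DMSO replicate 1 was not tested.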

Other observations

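Some genes of the mitochondrial ribosome share a start region with a neighbour on the other strand. In the RefSeq promoter table, 21 members had a measured neighbour that starts within 1000 bases and runs the other way, which gave 20 distinct neighbour pairings (MRPL46 and MRPS11 face each other). Of the 21 neighbours, 5 were lower (23.8%), 3 higher (14.3%) and 13 did not pass (limma). Over all genes 14.3% were lower and 14.3% higher, and among genes above the median signal 25.8% and 26.5%, so these shares are within or near the background. Among the 7 called members in this group, all of them lower, the neighbour was lower for MRPL40 (HIRA, -0.47 ± 0.07 SE, n = 3 arrays per group), MRPL27 (EME1, -0.46 ± 0.08) and MRPL57 (SKA3, -0.95 ± 0.07), and higher for MRPS7 (GGA3, 0.32 ± 0.07). It did not pass for MRPL30 (MITD1, 0.17 ± 0.08), MRPL14 (TMEM63B, -0.20 ± 0.07) and MRPS27 (PTCD2, 0.11 ± 0.12).

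The neighbours are named after their values were seen. The mitochondrial seryl-tRNA synthetase SARS2, which starts 181 bases from MRPS12, was at -0.22 ± 0.10, and MRPS12 at 0.11 ± 0.07; neither passed. MRPL51 did not pass (-0.13), while its neighbour NCAPD2, a condensin subunit that starts 840 bases away, fell by 0.99 (-0.99 ± 0.06, adjusted p = 1.49e-05, limma). Across the 21 members, the rank correlation of the difference with that of the neighbour was 0.21, a description only, since all pairs share the same 6 arrays.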
